A study of Mus musculus with 38 samples.

Results

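The nuclear genes of respiratory complex I were followed in CD11b+ microglia sorted from mouse brain after treatment with a TREM2 antibody. The members were every protein-coding row of the count table whose symbol starts with Nduf, which gave 45 of 53801 genes. They comprised 36 structural subunits of complex I, 7 assembly factors (Ndufaf1 to Ndufaf7), and Ndufa4 and Ndufa4l2, which carry the Nduf name but are placed with complex IV. The rule went by gene name and used no measured value, but the choice was made with earlier results of these data known. A filter on low counts kept 44 of them and 11189 genes in all. The remaining member, Ndufa4l2, a paralogue of Ndufa4 induced by low oxygen, had 33 counts in 7 libraries and was not tested.

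All 38 mice were 3 months old, on C57BL/6J, and carried the alleles labelled huTrem2 BACtg HEMI (a human TREM2 transgene on a bacterial artificial chromosome) and hTfR KI HOM (a humanized transferrin receptor), controls included. The 5 groups were Vehicle on day 1 (n = 6), ATV:DNP02 at 10 mg/kg on day 1 (n = 8), and DNL919 at 10 mg/kg on day 1, day 4 or day 7 (n = 8 each). DNL919 was taken to be the TREM2-activating antibody on a transferrin receptor-binding transport vehicle, and ATV:DNP02 its isotype control on the same vehicle, since the labels give only these names. Each library came from 1 mouse, and the 4 takedown batches held females (batches 1 and 2) or males (batches 3 and 4), so sex and batch cannot be told apart. No control was taken on day 4 or day 7, so those groups were set against the day 1 controls.

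Complex I is the entry point of the mitochondrial respiratory chain. It takes electrons from NADH, which the citric acid cycle and other dehydrogenases supply, passes them along a row of iron-sulfur clusters to ubiquinone, and uses the energy to pump protons across the inner membrane. The peripheral arm, which reaches into the matrix, holds the NADH and ubiquinone sites, and the membrane arm holds the pumps. The pumping core is encoded in mitochondrial DNA, whereas the core of the peripheral arm and all accessory subunits are encoded in the nucleus. Assembly factors build the complex, modify its subunits or hold its intermediates together, and are not part of the finished enzyme. Microglia, the resident macrophages of the brain, use both oxidative phosphorylation and glycolysis.

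Library totals ran from 1650141 to 6418858 counts and were larger on day 1 of DNL919 (mean 4166375 counts) than in ATV:DNP02 (mean 2341429 counts). The share of counts outside protein-coding genes was lower there, at 5.11% ± 1.46 (SD, n = 8), against 9.64% ± 2.24 (n = 8) in ATV:DNP02 and 10.8% ± 2.35 (n = 6) in Vehicle. Microglial markers were abundant in every library, at a summed level of 10920 to 22959 CPM (counts scaled to a common library size). Of the 9 tested, 5 fell on day 1 of DNL919 against ATV:DNP02, where 15% of all genes tested fell. The summed level of the markers had a median of 11715 CPM on day 1 of DNL919 and 19407 CPM in ATV:DNP02. What part these marker shifts have in the members' values was not tested. Neutrophil markers were high in 2 libraries, DNL919 day 4 replicate 6 (5504 CPM) and day 7 replicate 7 (27412 CPM), and monocyte markers in the latter (3050 CPM, all other libraries at most 239 CPM). Markers of border-associated macrophages reached 914 CPM in 1 ATV:DNP02 library. In bulk samples of this kind, fewer cells of a type and less RNA per cell cannot be told apart.

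DNL919 day 1 replicate 5, a male of batch 3, stood apart from its group in these genes. Its structural subunits summed to 5577 CPM, whereas the other 7 libraries of the group held 9351 to 13432 CPM and the ATV:DNP02 libraries 4962 to 7048 CPM. It was among the deepest libraries (6239057 counts) and had the lowest share outside protein-coding genes of its group (3.08%). Not all members were low in it, since Ndufv1, Ndufs3 and Ndufs5 lay among the other day 1 values at 81.6, 47.3 and 14.3 CPM. Most calls, medians and sums that rest on this group are therefore given with it and also without it. The library was picked after its values were seen, for its low structural sum. Higher counts and medians without it follow in part from that choice and are no separate support. The rule used below to flag single libraries did not flag it.

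One day after DNL919, structural subunits of both arms of complex I were higher than after the isotype control. Of the 36, 30 rose and none fell, with a median log2 fold change of 0.70 (range 0.28 to 2.57, median SE 0.18). Of the 7 assembly factors, 3 rose (Ndufaf2, Ndufaf5 and Ndufaf6) and none fell, with a median of 0.34 (range 0.25 to 1.60, median SE 0.25). Ndufa4 rose as well. Over all genes tested, 20.8% rose, 15% fell and the median log2 fold change was 0.01. A gene was called where the Benjamini-Hochberg adjusted p of limma-voom, over all 11189 genes and with batch in the model, was under 0.05. An increase of 2-fold or more was reached by 7 structural subunits and 2 assembly factors, and by 1482 of all genes tested, counting called genes only.

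**Figure D1:**
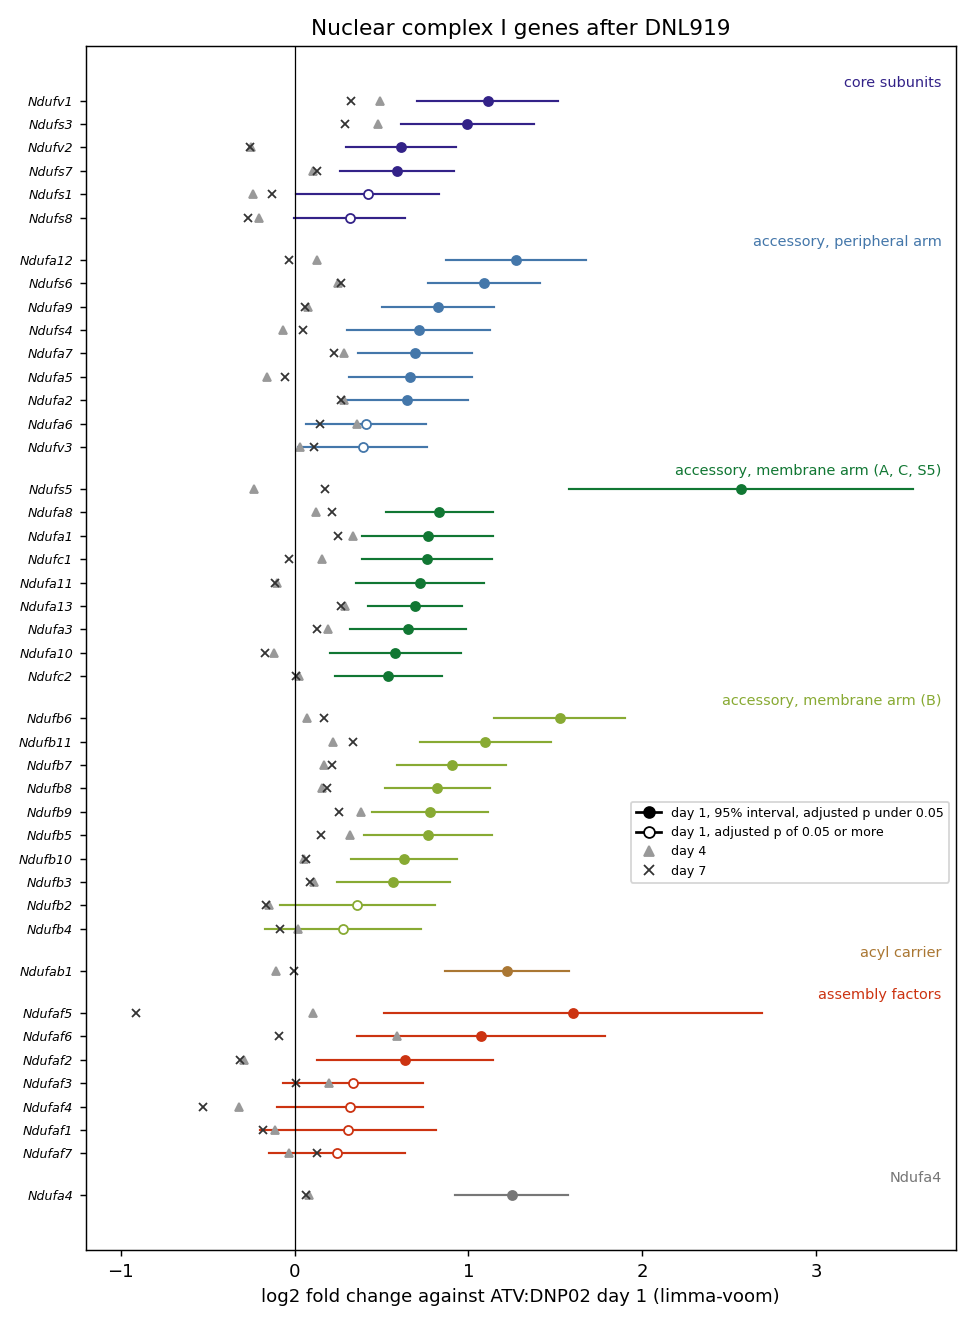
Log2 fold change of tested Nduf genes against ATV:DNP02 day 1 (horizontal axis, limma-voom), with genes on the vertical axis grouped by their place in complex I. Circles with 95% confidence intervals are DNL919 day 1, filled where called, triangles are day 4 and crosses day 7, drawn without intervals. All day 1 estimates drawn lie above 0, with Ndufs5 farthest to the right at 2.57.

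The plot of fold changes by gene shows that the estimates of the structural classes lay close together. The median log2 fold change was 0.61 in the core of the peripheral arm (5 of 7 rose), 0.69 in its accessory subunits (7 of 9), 0.72 in the A, C and S5 subunits of the membrane arm (9 of 9) and 0.77 in the B subunits (8 of 10). All 4 medians lay above that of the assembly factors. The difference between the median of structural subunits and that of assembly factors was 0.37 on the log2 scale, and it was 0.23 with the share of counts outside protein-coding genes as a covariate and 0.42 without DNL919 day 1 replicate 5. The assembly factors had the larger standard errors, and with 7 of them no test of this difference between kinds of gene was made.

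In the core of the peripheral arm, Ndufv1, which binds NADH and the flavin that accepts its electrons, changed most. Its level was 22.0, 31.1 and 54.0 CPM (lowest, median and highest of 8 libraries) in ATV:DNP02 and 46.6, 80.4 and 93.5 CPM on day 1 of DNL919. The groups overlapped at their edges only. The log2 fold change was 1.11 (SE 0.20, limma-voom adjusted p = 1.95e-05). Ndufs3, a core subunit next to the ubiquinone-reducing part, went from 16.8, 25.4 and 31.6 CPM to 39.6, 46.9 and 62.8 CPM. Every DNL919 library lay above every ATV:DNP02 library, and its log2 fold change was 0.99 (SE 0.19, limma-voom adjusted p = 4.25e-05). Ndufs8, which carries iron-sulfur clusters on the path to ubiquinone, changed least, from 135.9, 234 and 320 CPM to 215, 289 and 343 CPM. Its groups overlapped over most of their range (log2 fold change 0.32, SE 0.16, limma-voom adjusted p = 0.114). Ndufs1, the largest iron-sulfur protein of the arm, was also not called, at 25.5, 40.2 and 42.0 CPM against 32.3, 52.5 and 62.8 CPM (0.42, SE 0.20, limma-voom adjusted p = 0.104).

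Among the accessory subunits of the peripheral arm, the largest estimate was that of Ndufa12, a late-joining subunit whose paralogue is the assembly factor Ndufaf2. It held 115, 206 and 235 CPM in ATV:DNP02 and 172, 553 and 699 CPM on day 1 of DNL919. All DNL919 libraries but replicate 5 were above the control range, and the log2 fold change was 1.27 (SE 0.20, limma-voom adjusted p = 1.71e-06). Ndufv3, a small subunit at the NADH-binding tip, had the smallest estimate, with 191, 324 and 467 CPM against 172, 422 and 566 CPM. The groups overlapped and it was not called (0.39, SE 0.18, limma-voom adjusted p = 0.0923). Ndufa6, which docks the acyl carrier protein on this arm, was not called either (0.41, SE 0.17, limma-voom adjusted p = 0.0553).

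Ndufab1 is the mitochondrial acyl carrier protein, which sits on both arms of complex I and also serves fatty acid and lipoic acid synthesis. Its level was 79.9, 129 and 185 CPM in ATV:DNP02 and 158, 329 and 405 CPM on day 1 of DNL919. Only replicate 5 of the DNL919 libraries reached into the control range (log2 fold change 1.22, SE 0.18, limma-voom adjusted p = 3.33e-07).

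In the membrane arm the farthest estimate belonged to Ndufs5, an accessory subunit on the intermembrane-space face. It was scarce, with 740 counts in all 38 libraries together, of which 53 came from ATV:DNP02 and 530 from day 1 of DNL919. Its level was 0.554, 2.10 and 5.24 CPM in ATV:DNP02 and 2.90, 13.6 and 28.4 CPM after DNL919. The lowest DNL919 library overlapped the controls, and the log2 fold change was 2.57 (SE 0.49, limma-voom adjusted p = 4.65e-05). Of the 50-base stretches in its last 500 transcript bases, 31.0% also occur in BC002163, a copy elsewhere in the genome with 20 counts here, so its count depends on how reads that fit both were treated. Such sharing with other genes, on either strand, was also found for Ndufaf2 (40.4%), Ndufb6 (32.1%), Ndufa12 (24.9%), Ndufs3 (23.4%) and Ndufab1 (22.6%), among others. With the share of counts outside protein-coding genes as a covariate, the log2 fold change of Ndufs5 was 1.33 and no longer called (limma-voom adjusted p = 0.0766). Ndufc2, another accessory subunit of the arm, had the smallest estimate of this class and rose from 199, 230 and 353 CPM to 229, 393 and 500 CPM (0.54, SE 0.15, limma-voom adjusted p = 0.00464).

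Among the B subunits, Ndufb6 (ENSMUSG00000071014, chr4:40270591-40279421 of GRCm38.p6, minus strand), an accessory subunit of the distal membrane arm, was the clearest case. It held 60.0, 93.7 and 122 CPM in ATV:DNP02 and 139, 275 and 374 CPM on day 1 of DNL919. All 8 DNL919 libraries were above all 8 controls, and its log2 fold change was 1.52 (SE 0.19, limma-voom adjusted p = 8.91e-09). Its exons overlap Toporsos on the opposite strand over 257 bases, and Toporsos itself was not called (-0.42, limma-voom adjusted p = 0.154). Exons of 19 of the 45 members overlap another gene. Among partners of tested members, Impdh2 (with Ndufaf3), Eef1b2 (Ndufs1), Mrpl36 (Ndufs6) and Mrpl47 (Ndufb5) rose. The partners Braf, Ino80dos, Kbtbd4, Rbm10, Tfpt, Tmco6 and Vmac were not called. What part such overlaps have in the members' values was not tested. Ndufb4 and Ndufb2, both small subunits of the same arm, were not called. Ndufb4 went from 62.9, 109 and 164 CPM to 57.3, 158 and 246 CPM (0.28, SE 0.22, limma-voom adjusted p = 0.354), and Ndufb2 from 89.1, 185 and 259 CPM to 81.6, 265 and 400 CPM (0.36, SE 0.22, limma-voom adjusted p = 0.209). In both genes the lowest library of all 16 belonged to the DNL919 group.

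**Figure D2:**
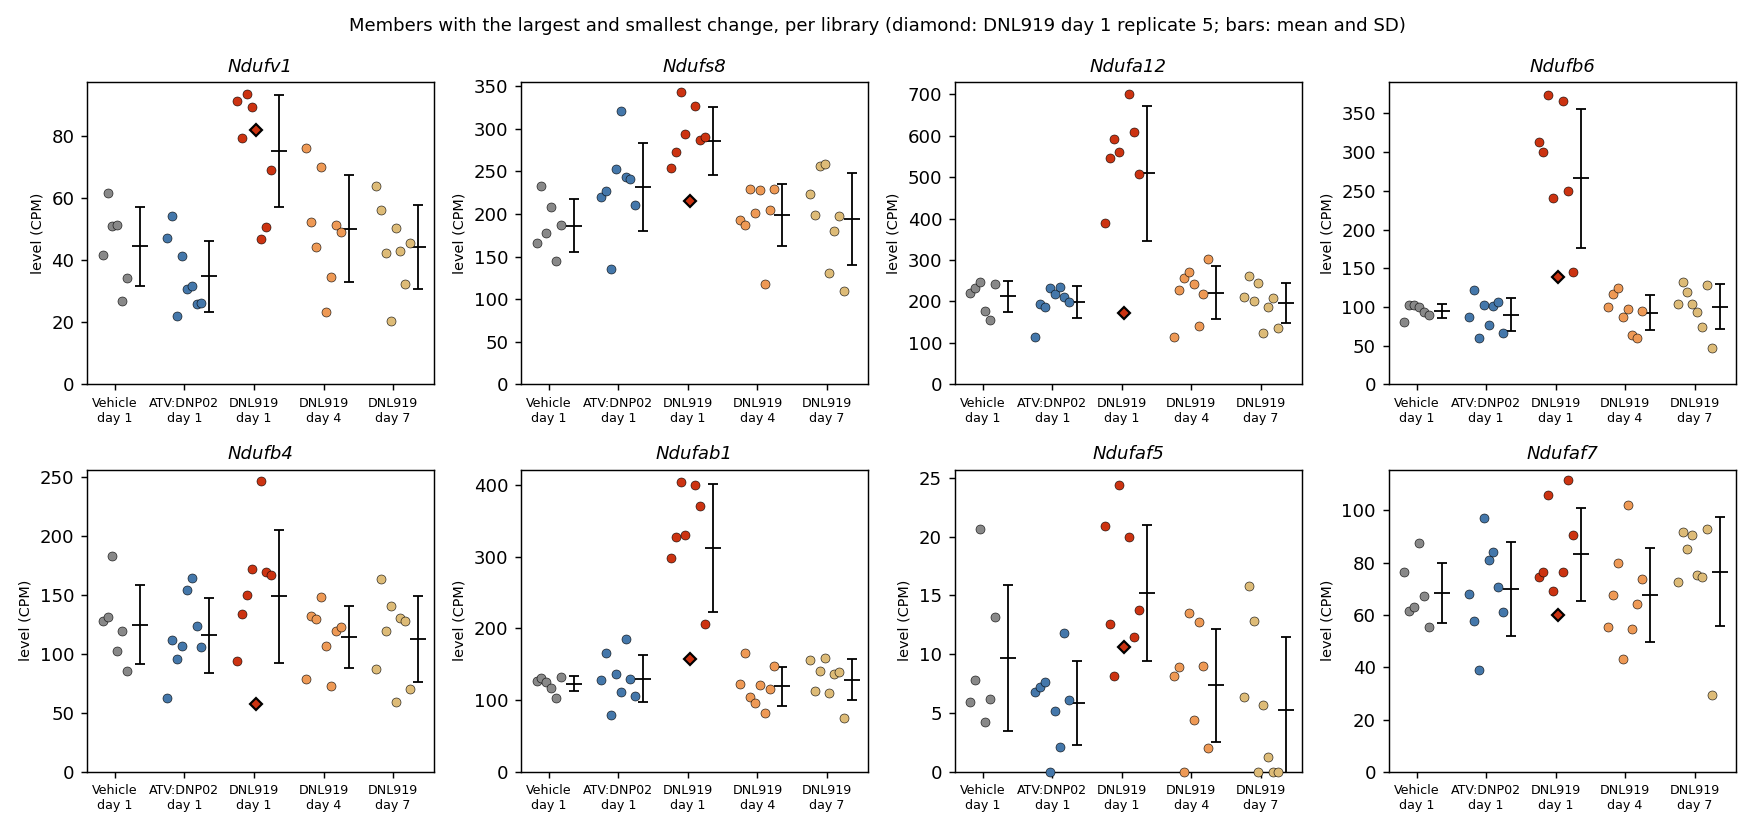
Level of 8 Nduf genes in each library (vertical axes, CPM from 0) by group (horizontal axis), with 1 point per mouse, a diamond for DNL919 day 1 replicate 5, and bars for the group mean and SD, cut off at 0. In Ndufb6 all 8 DNL919 day 1 libraries sit above all ATV:DNP02 libraries, and the day 4 and day 7 points overlap the controls.

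Among the assembly factors, Ndufaf5, which hydroxylates an arginine of the core subunit Ndufs7, had the largest estimate, at 0, 6.45 and 11.8 CPM in ATV:DNP02 and 8.10, 13.2 and 24.4 CPM on day 1 of DNL919. The ranges overlapped, and the log2 fold change of 1.60 had a wide error (SE 0.54, limma-voom adjusted p = 0.017). The edgeR quasi-likelihood test did not call it (1.37, adjusted p = 0.137). Ndufaf6, needed early in assembly, was at 8.38, 11.6 and 24.9 CPM and at 19.8, 24.3 and 35.9 CPM (1.07, SE 0.35, limma-voom adjusted p = 0.0152). Ndufaf2, which holds a place in a late intermediate that Ndufa12 takes over, was at 23.2, 36.8 and 54.7 CPM and at 25.8, 70.1 and 93.2 CPM (0.63, SE 0.25, limma-voom adjusted p = 0.0446). Most Ndufaf2 libraries after DNL919 were above the control range, but the lowest were not.

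The other 4 assembly factors had estimates of 0.25 to 0.34 and were not called. Ndufaf7, a mitochondrial protein methyltransferase, stood at 38.8, 69.4 and 97.3 CPM in ATV:DNP02 and 60.2, 76.5 and 111.5 CPM on day 1 of DNL919 (0.25, SE 0.19, limma-voom adjusted p = 0.343). Ndufaf3 and Ndufaf4, partners in the assembly of the ubiquinone-reducing part, had estimates of 0.34 (SE 0.20, limma-voom adjusted p = 0.195) and 0.32 (SE 0.21, limma-voom adjusted p = 0.246). Ndufaf1, part of the intermediate assembly complex of the membrane arm, had 0.31 (SE 0.25, limma-voom adjusted p = 0.367). In these 4 genes the ranges of the groups overlapped over most of their length.

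Ndufa4, long counted to complex I and now to complex IV, went from 225, 282 and 318 CPM to 329, 713 and 1032 CPM. All 8 DNL919 libraries lay above all controls (1.25, SE 0.16, limma-voom adjusted p = 3.16e-08).

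Against Vehicle, the second control of the same day, 33 of 36 structural subunits rose (median 0.79), 1 of 7 assembly factors rose (median 0.41), and Ndufa4 rose, where 19% of all genes tested rose and 14.4% fell. The structural subunits that were not called were Ndufb4, Ndufs1 and Ndufv3. Ndufaf6 was the assembly factor that rose (1.39, SE 0.50, limma-voom adjusted p = 0.027), and Ndufaf2 (0.65, adjusted p = 0.0759) and Ndufaf5 (0.93, adjusted p = 0.182) were not called. With the share of counts outside protein-coding genes as a covariate, 23 members rose against Vehicle (22 structural subunits, no assembly factor) instead of 35, and 29 against ATV:DNP02 (27 structural subunits and 1 assembly factor) instead of 34. The share of all genes called with that covariate is not given here, so the lower counts are no result about the members. Both comparisons rest on the same DNL919 libraries. Between ATV:DNP02 and Vehicle, limma-voom called no gene (0 of 11189, 0%). At an unadjusted p under 0.05 there were 498 genes and no member, and the edgeR quasi-likelihood test called no member.

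Few members separated the groups fully. Every DNL919 day 1 library was above every ATV:DNP02 library in 2 of 36 structural subunits (Ndufb6 and Ndufs3), in no assembly factor and in Ndufa4, where 5.54% of all genes tested did so. Against Vehicle it was 6 of 36 structural subunits and 6.69% of all genes. Without DNL919 day 1 replicate 5, it was 18 of 36 structural subunits and 0 of 7 assembly factors against ATV:DNP02 (8.35% of all genes). Against Vehicle it was then 27 of 36 and 0 of 7 (9.81%). Leaving out a library can only keep or raise such counts, and this one was picked for its low values. In that library 13 of 36 structural subunits were above the control mean, and in the other 7 libraries 34 to 36 were.

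Without DNL919 day 1 replicate 5, 34 of 36 structural subunits (median 0.84) and 3 of 7 assembly factors (median 0.42) rose against ATV:DNP02, with 21.2% of all genes tested rising. The class medians were then 0.64 in the core (5 of 7 rose), 0.84 in the accessory subunits of the peripheral arm (9 of 9), 0.85 in the A, C and S5 subunits (9 of 9) and 0.88 in the B subunits (10 of 10). Of the members named above, Ndufa6 (0.51), Ndufv3 (0.57), Ndufb2 (0.60) and Ndufb4 (0.49) were now called and none lost its call. Ndufs5 (2.49), Ndufv1 (1.04) and Ndufs3 (0.98) had slightly smaller estimates than with all libraries, and Ndufb6 (1.67), Ndufa12 (1.48), Ndufab1 (1.36) and Ndufa4 (1.41) larger ones. Against Vehicle, 34 structural subunits (median 0.90) and 2 assembly factors, Ndufaf6 (1.41) and Ndufaf2 (0.89), rose, with 19.4% of all genes tested rising. From day 1 to day 4, 34 structural subunits (median -0.69) and 3 assembly factors (Ndufaf2, Ndufaf4 and Ndufaf5) fell, with 19.1% of all genes tested falling.

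Summed over all 36 structural subunits, the level was 6094 ± 787 CPM (SD, n = 8) in ATV:DNP02, 5779 ± 468 CPM (n = 6) in Vehicle and 10282 ± 2313 CPM (n = 8) on day 1 of DNL919. The assembly factors summed to 262 ± 57.9, 259 ± 26.0 and 350 ± 63.3 CPM in the same groups. The ratio of the sums was 23.9 ± 3.5 in ATV:DNP02, 22.4 ± 1.6 in Vehicle and 29.2 ± 3.1 on day 1 of DNL919, so the structural sum was the one that grew more. Without DNL919 day 1 replicate 5 the day 1 values were 10954 ± 1423 CPM for the structural sum, 366 ± 47.3 CPM for the assembly sum (SD, n = 7) and 26.6 to 33.1 for the ratio. The ratio was still 26.9 ± 3.7 on day 4 and 28.0 ± 2.9 on day 7, when neither kind of gene had a member called. The ranges of the ratio overlapped between ATV:DNP02 and each DNL919 group.

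**Figure D3:**
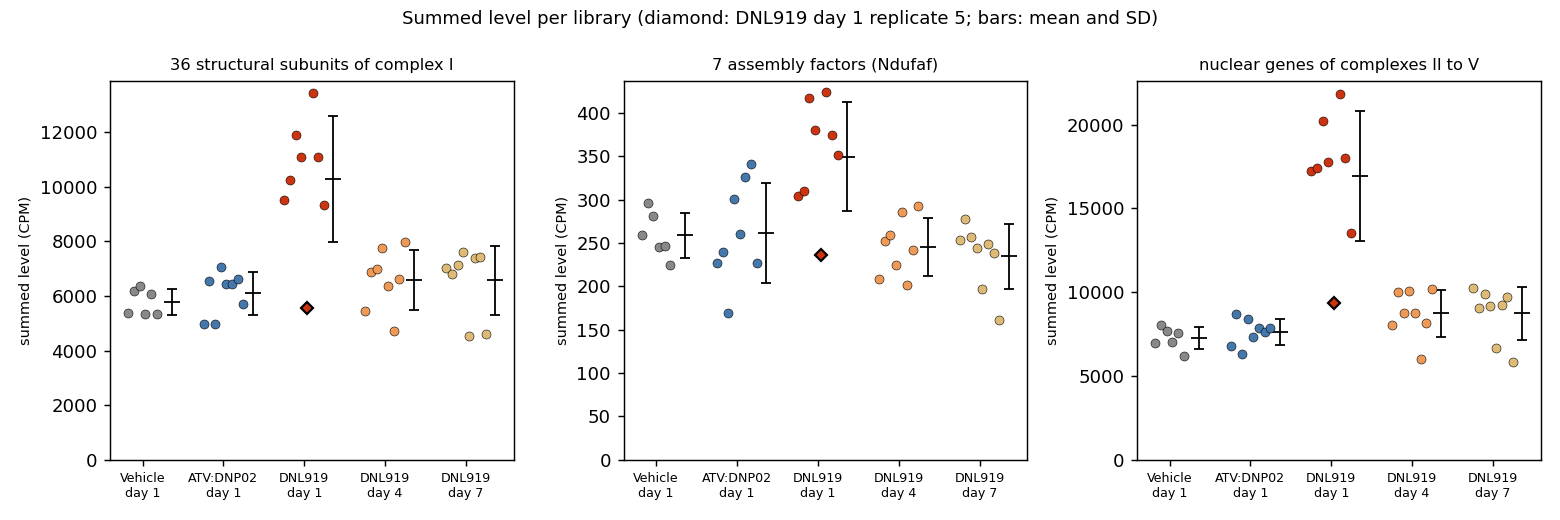
Summed CPM of the structural subunits, of the assembly factors and of the nuclear genes of complexes II to V in each library (vertical axes, from 0) by group (horizontal axis), with 1 point per mouse, a diamond for DNL919 day 1 replicate 5, and bars for the group mean and SD. On day 1 of DNL919, 7 of 8 structural sums lie above the highest ATV:DNP02 value of 7048 CPM, and replicate 5 lies at 5577 CPM.

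By day 4 the levels were back near those of the controls. Between DNL919 day 4 and DNL919 day 1, 29 of 36 structural subunits (median -0.59), 3 of 7 assembly factors (Ndufaf2, Ndufaf4 and Ndufaf5) and Ndufa4 fell, where 18.1% of all genes tested fell and 13.8% rose. Ndufs5 fell by 2.80, Ndufb6 by 1.45 and Ndufab1 by 1.33 on the log2 scale. Among the assembly factors Ndufaf5 fell by 1.50, Ndufaf2 by 0.92 and Ndufaf4 by 0.64. Every day 4 library was below every day 1 library in Ndufb6 alone of the 36 structural subunits (3.22% of all genes). This comparison shares its day 1 libraries with those above.

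Against ATV:DNP02, no member was called on day 4 (1.81% of all genes were called in either direction) or on day 7 (1.51%). The structural median was 0.11 on day 4 (range -0.25 to 0.49) and 0.13 on day 7, and the assembly medians were -0.03 and -0.18. At an unadjusted p under 0.05 there were 5 members on day 4 and 1 on day 7, and neither the edgeR quasi-likelihood test nor DESeq2 called a member. How many of all genes passed that unadjusted threshold is not given here, so these counts are no result about the members. Ndufb6 was at 59.8, 95.6 and 124 CPM on day 4 and 46.4, 104 and 133 CPM on day 7. Its log2 fold change was 0.07 on day 4 (95% interval -0.32 to 0.47) and 0.17 on day 7 (-0.23 to 0.57), so both intervals lay below its day 1 estimate of 1.52. The intervals of Ndufs3 (0.08 to 0.88) and Ndufv1 (0.07 to 0.92) on day 4 lay above 0 without passing the adjusted threshold (limma-voom adjusted p = 0.264 and 0.294). Without the 2 libraries that held neutrophil markers, the count was again 0 on both days.

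Set against Vehicle, likewise, no member was called on day 4 (1.08% of all genes) or day 7 (0.965%), with 5 and 2 members at an unadjusted p under 0.05 and none by the edgeR quasi-likelihood test. The unadjusted counts again stand without those over all genes. Between day 7 and day 4, limma-voom called 0 of all genes (0%), with 483 genes and no member at an unadjusted p under 0.05 and no member by the edgeR quasi-likelihood test.

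Within each of the 4 batches, where 2 libraries per group were compared, the structural median on day 1 against ATV:DNP02 was 0.75 and 0.96 in the female batches and 0.39 and 0.70 in the male batches. The assembly medians were 0.34, 0.88, 0.21 and 0.54. The medians over all genes tested were 0.00, 0.01, 0.10 and 0.09 in batches 1 to 4. The direction was upward in all 4 batches in 32 of 36 structural subunits and 4 of 7 assembly factors. The share of all genes that did so was not computed. The structural exceptions, Ndufa10, Ndufb2, Ndufb4 and Ndufs8, were below 0 in batch 3 alone, where replicate 5 is 1 of 2 DNL919 day 1 libraries. With replicate 5 included, the day 1 effect was smaller in males in most members, but the difference between the sexes was within its error. The batch values and the sex difference were not refitted without replicate 5. The median difference was -0.33 on the log2 scale over structural subunits (median SE 0.35), with 0 of all genes called by limma-voom (0%), 609 genes and no member at an unadjusted p under 0.05, and no member called by the edgeR quasi-likelihood test. Fitted alone, females gave 37 members that rose of 44 (17.8% of all genes tested rose) and males 3 (5.35%). Replicate 5 is 1 of the 4 males of its group, and without it males alone gave 11 (6.62%).

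The other respiratory complexes and the genes around complex I were read from lists chosen by function. Of the nuclear subunits of complexes II to V with cytochrome c, 37 of 39 rose on day 1 against ATV:DNP02, with a median of 1.09, above the 0.70 of the complex I subunits. The medians were 0.69 for complex II (3 of 4 rose), 1.04 for complex III with cytochrome c (10 of 10), 1.16 for complex IV (10 of 10) and 1.17 for complex V, the ATP synthase (14 of 15). Atp5b, the catalytic subunit of the ATP synthase, rose by 1.90 (SE 0.21, limma-voom adjusted p = 1.44e-09), and Uqcrb of complex III by 1.62 (SE 0.15, limma-voom adjusted p = 1.65e-11). The summed level of these genes in DNL919 day 1 replicate 5 was 9372 CPM, against 13557 to 21797 CPM in the other 7 libraries of its group. Without it, 37 of 39 again rose, with a median of 1.22.

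**Figure D4:**
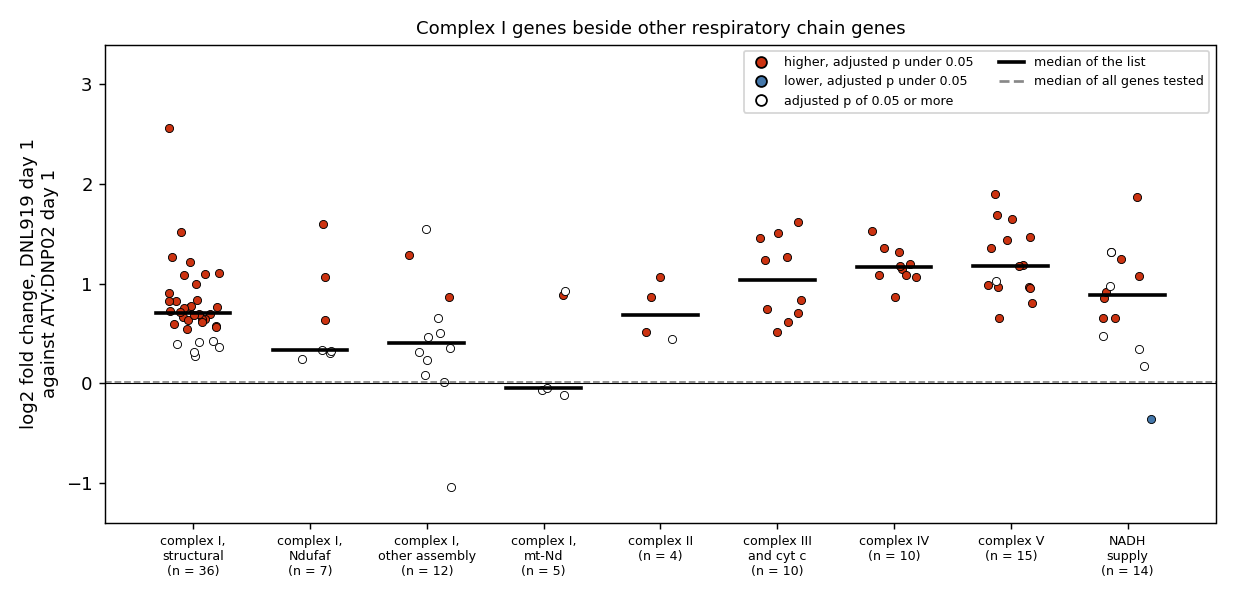
Log2 fold change in DNL919 day 1 against ATV:DNP02 day 1 (vertical axis, limma-voom) of complex I genes, other respiratory chain genes and genes of NADH supply (horizontal axis), with 1 point per gene, filled where called, a bar at each list's median and a dashed line at the median of all genes tested. The median is 0.70 for complex I structural subunits, 0.34 for Ndufaf genes and -0.05 for mitochondrially encoded subunits (mt-Nd).

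The complex I subunits made inside mitochondria showed no common shift gene by gene. Of 5 tested, mt-Nd1, a membrane subunit beside the ubiquinone site, rose (0.88, SE 0.12, limma-voom adjusted p = 7.41e-08), and the median was -0.05 (0.02 without replicate 5). Their summed level was 3613 ± 677 CPM (SD, n = 8) in ATV:DNP02, 3860 ± 680 CPM (n = 6) in Vehicle and 4674 ± 839 CPM (n = 8) on day 1 of DNL919. The ranges of these sums overlapped. Assembly genes of complex I without the Nduf name had a median of 0.41, and 2 of 12 rose, Chchd4 (1.28, limma-voom adjusted p = 0.000705), an import factor of the intermembrane space, and Tmem126a (0.86). This median was near the 0.34 of the Ndufaf genes. Of the genes that supply NADH, 8 of 14 rose and 1 fell. Idh3a, the catalytic subunit of the NAD-linked isocitrate dehydrogenase, rose by 1.87 (SE 0.23, limma-voom adjusted p = 1.33e-08), while Idh3g of the same enzyme fell by 0.36. Without DNL919 day 1 replicate 5, 7 of the 14 rose and none fell. Among electron entry points other than complex I, Etfa rose (1.09) and Sqrdl fell by 0.87, of 7 tested. Of 10 regulators of mitochondrial biogenesis, Myc rose (1.02) and Gabpa fell by 0.79, and Nrf1 (-0.16, SE 0.35) and Yy1 (-0.41, SE 0.27) were not called. Of 8 genes of the hypoxia response, Vegfa (2.30) and Slc2a1 (1.49) rose and Pdk1 fell by 0.75. Over all genes tested, 20.8% rose and 15% fell. The shares called among the other assembly genes, electron entry points, biogenesis regulators and hypoxia genes were near these or below. Their calls are therefore given gene by gene and are no result about the lists.

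Promoter windows were compared between the structural subunits and the assembly factors. RefSeq gave a window for 39 of the 45 members, from 250 bases before to 50 bases after the start site on GRCm38.p6, and for 27025 genes in all. Motifs were searched on both strands, and no motif's letters contain those of another. The YY1 motif AAGATGGC was found in 7 of 32 structural subunits (21.9%), in none of 6 assembly factors, in 5.98% of the genes tested and in 3.19% of all genes. The NRF1 motif CATGCGC was in 5 structural subunits (15.6%), 2 assembly factors, 8.74% of the genes tested and 4.41% of all genes. The ETS motif CCGGAAG was in 12.5% of structural subunits and 22.3% of the genes tested, and GGGCGG, bound by SP and KLF factors, in 46.9% and 70%. The motifs AAGGTCA (ESRRA), TGACGTCA (CREB) and CACGTG (E-box) were in 3, 3 and 2 structural subunits and in no assembly factor, against 3.93%, 3.99% and 12.4% of the genes tested. A match describes the letters and is neither a bound site nor a cause.

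All 7 YY1 matches lay on the gene's own strand, 23 to 39 bases after the start site, and in each the ATG inside the motif is the annotated start codon. All 7 genes rose on day 1, as did 27 of all 32 structural subunits with a promoter window. The matches are shown because they share this place. Each stretch of 30 bases is read along the gene's strand, with the motif in capitals.
Ndufa3 (chr7:3617384-3617413, plus strand): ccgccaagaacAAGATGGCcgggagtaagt
Ndufa9 (chr6:126849097-126849126, minus strand): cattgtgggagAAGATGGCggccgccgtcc
Ndufb8 (chr19:44555393-44555422, minus strand): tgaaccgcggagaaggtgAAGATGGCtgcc
Ndufc1 (chr3:51408915-51408944, minus strand): gcctgcggaacAAGATGGCgccgtccgtag
Ndufs4 (chr13:114388045-114388074, minus strand): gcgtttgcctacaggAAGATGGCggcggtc
Ndufs6 (chr13:73328433-73328462, minus strand): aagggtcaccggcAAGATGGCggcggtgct
Ndufs7 (chr10:80249462-80249491, plus strand): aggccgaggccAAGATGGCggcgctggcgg

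Their log2 fold changes on day 1 ran from 0.59 (Ndufs7) to 1.09 (Ndufs6), within the range of the structural subunits without the motif. The NRF1 matches fell in genes of both kinds. Those of Ndufb6 and Ndufaf5 are shown because these genes had the largest estimates of their classes, beside those of Ndufa6 and Ndufaf4, which were not called. Capitals mark the motif on either strand, and the palindromic GCGCATGCGC holds it on both.
Ndufb6 (chr4:40279480-40279509, minus strand): gagagggctttGCGCATGagcagagcctgc
Ndufaf5 (chr2:140170651-140170680, plus strand): tagtcccgttgGCGCATGCGCctaatagaa
Ndufa6 (chr15:82354355-82354384, minus strand): ccgcggtagagCATGCGCattgcagagccc
Ndufaf4 (chr4:24897959-24897988, plus strand): cccagatgtctGCGCATGCGCctgtgcgga

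The 150 bases before the start site are shown for Ndufb6, which separated the groups fully, and for Ndufs5, which had the largest estimate. In Ndufb6 the capitals mark the NRF1 motif and a motif of SP and KLF factors, both on the reverse strand. The stretch of Ndufs5 held none of the 7 motifs.
Ndufb6 (chr4:40279422-40279571, minus strand): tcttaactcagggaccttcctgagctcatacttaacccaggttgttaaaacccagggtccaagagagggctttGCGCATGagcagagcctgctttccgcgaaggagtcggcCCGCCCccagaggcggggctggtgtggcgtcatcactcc
Ndufs5 (chr4:123718187-123718336, minus strand): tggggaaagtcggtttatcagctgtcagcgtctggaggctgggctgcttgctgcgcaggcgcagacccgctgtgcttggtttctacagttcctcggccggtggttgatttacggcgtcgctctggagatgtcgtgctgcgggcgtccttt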

How the data were processed

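Sequencing libraries were made from sorted CD11b+ cells with a 3′ kit (SMARTSeq v4 3′ DE). The submitters' processing notes name STAR, featureCounts of Subread 1.6.2, edgeR and GRCm38.p6. The annotation release, strand setting and use of molecular identifiers are not given in the sources used here. The deposited table holds whole-number counts per gene, in which every value of 100 or more had been rounded to 2 significant digits. The deposited scaling factors are a ratio per library and were used in an alternative. A sheet of normalized CPM signal, which the authors had scaled with edgeR before it was deposited, was not tested. The counts went into limma-voom (R 4.3.3 with limma 3.58.1 and edgeR 4.0.16) over all 38 libraries, after TMM scaling and filterByExpr (minimum count 10, total 15, proportion 0.7), with group and batch as terms, after a test on simulated data. CPM values use TMM-scaled totals. All p-values are two-sided. Comparisons with 1 group in common share its libraries. No pair of libraries was identical. Genes are named where they had the largest or smallest day 1 estimate of their class, or for a reason given beside them. Members and lists were chosen with earlier results of these data known. DESeq2 1.42.0 and the edgeR quasi-likelihood test were alternatives, as were other scalings, filters, covariates and subsets of libraries. Sequences come from RefSeq on GRCm38.p6. Ndufaf8 and Ndufb1 were not analysed here. In addition, 1 tested structural subunit enters the counts and medians but is not reported or drawn here on its own.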

Additional observations from a re-analysis of the deposited data

Results flagged for a closer look

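In 7 of 100 groups of values tested (20 items), 1 library lay far from the rest of its group, where chance gives about 1 in 20. In ATV:DNP02, replicate 1 had 115 CPM of Ndufa12 (the others 188 to 235 CPM), and replicate 8 had both a high Ndufaf1 (47.7 CPM, the others 15.5 to 29.0 CPM) and a low Ndufs1 (25.5 CPM, the others 36.7 to 42.0 CPM). Ndufs5 was at 4.14 CPM in Vehicle replicate 5 (the others 0.425 to 1.81 CPM). On day 4 of DNL919, replicate 6, which also held neutrophil markers, had 118 CPM of Ndufs8 (the others 187 to 229 CPM). On day 7, Ndufaf7 was at 29.5 CPM in replicate 8 (the others 72.5 to 93.0 CPM) and Ndufv3 at 590 CPM in replicate 4 (the others 201 to 384 CPM).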

How the results depend on the processing

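On day 1, all calls among the members were upward under every alternative run. Against ATV:DNP02 the count of 34 ranged from 3 to 40 over 21 alternatives. It was 3 in males alone and 11 in males without DNL919 day 1 replicate 5, an alternative chosen after seeing the data. Against Vehicle the count of 35 ranged from 2 to 38. It was 2 in males alone, 21 in males without that library, and 23 with the share of counts outside protein-coding genes as a covariate, and the cause was not tested. Subsets hold fewer libraries. For most alternatives the share of all genes called is not given here, so the spread of these counts is no result about the members. With that covariate the median difference between structural subunits and assembly factors fell from 0.37 to 0.23, and over the other alternatives it stayed at or under 0.47. Ndufaf7 turned to -0.053 with the covariate, and Ndufaf4 (-0.042) and Ndufb4 (-0.046) turned in males alone. None of the 3 was called in the reported comparison. Ndufaf5 lost its call with the edgeR quasi-likelihood test, DESeq2, in each sex alone, in males without DNL919 day 1 replicate 5, and without batch 1 or batch 3. On day 4 and day 7 against ATV:DNP02 the count was 0 under all 20 alternatives, and between day 4 and day 1 it was 29 to 38. With library totals and no TMM, the median over all genes was -0.10 in place of 0.01. No paired analysis was possible because the labels carry no replicate numbers. Counts of 100 or more carry 2 significant digits, and Ndufs5 and Ndufaf5 rest on few counts.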
